A study of Saccharomyces cerevisiae with 11 samples.

Results

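The hexose transporters of budding yeast described here are the 10 genes *HXT1*, *HXT2*, *HXT3*, *HXT4*, *HXT5*, *HXT6*, *HXT7*, *HXT10*, *HXT13* and *HXT17*. They were taken by their systematic names from a table of estimated read counts for 7126 genes, and all 10 passed the filter on low counts that kept 6321 genes. The counts came from 11 cultures of W303 yeast in 4 groups, made from a pair of integrant strains that each carried a nuclear-targeted huntingtin (Htt) exon 1 fragment fused to GFP and driven by the *GAL* promoter. The groups were NLS-Htt25Q cells with an empty vector (Htt25Q [V], 2 libraries), NLS-Htt25Q cells with *SLX5* on a low-copy *CEN* plasmid (Htt25Q [*SLX5*], 3 libraries), NLS-Htt103Q cells with the vector (Htt103Q [V], 3 libraries) and NLS-Htt103Q cells with the *SLX5* plasmid (Htt103Q [*SLX5*], 3 libraries). *SLX5* encodes a subunit of a ubiquitin ligase that recognises SUMO-modified proteins, and Htt25Q and Htt103Q give the number of glutamines in the Htt tract. Cultures of every group grew at 25°C in synthetic complete medium with 2% raffinose to mid-log phase and then received 2% galactose for 4 h, and every strain carried *LEU2* with the Htt gene and a *HIS*-marked plasmid. Each Htt length was 1 integrant strain sampled as libraries lettered a to c, so Htt length and strain background cannot be told apart. The letters are called clone letters here, but the labels do not state whether a letter marks a shared day or transformation. The spread between libraries of a group is the spread between cultures of a strain.

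Hxt proteins are sugar permeases of the plasma membrane that carry hexoses into the cell by facilitated diffusion. Yeast matches the set it makes to the sugar outside: Hxt1 and Hxt3 have low affinity and serve cells in abundant glucose, whereas Hxt2, Hxt4, Hxt6 and Hxt7 have higher affinity and serve cells in scarce glucose. Glucose sensed by Snf3 and Rgt2 lifts the repressor Rgt1 from *HXT* promoters, and the repressor Mig1 silences the high-affinity genes when glucose is abundant. Hxt5 is made during slow growth and starvation, Hxt10 is a family member with little expression in common media, and Hxt13 and Hxt17 belong to a branch that has been linked to polyol transport. The medium used here held raffinose and galactose, and galactose enters mainly through Gal2, a relative of the Hxt proteins. A change in such bulk RNA can reflect fewer cells that express a gene or less RNA in each cell, and these cannot be told apart.

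All 10 genes are single coding exons in the RefSeq annotation of the R64 assembly of strain S288C, and 6 of them sit in a pair of clusters. On chromosome VIII, minus strand, lie *HXT4* (YHR092C, chrVIII:287081-288811), *HXT1* (YHR094C, chrVIII:290913-292625) and *HXT5* (YHR096C, chrVIII:294669-296447). On chromosome IV, minus strand, lie *HXT7* (YDR342C, chrIV:1154216-1155928), *HXT6* (YDR343C, chrIV:1159608-1161320) and *HXT3* (YDR345C, chrIV:1162957-1164660). The other members are *HXT2* (YMR011W, chrXIII:288079-289704, plus strand), *HXT10* (YFL011W, chrVI:112345-113985, plus strand), *HXT13* (YEL069C, chrV:21537-23231, minus strand) and *HXT17* (YNR072W, chrXIV:772657-774351, plus strand). The authors counted on the EF4 release of the same strain's genome, in which the coding lengths of all 10 members equal those of R64.

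The members differ widely in how far reads can tell them apart. Of the 45 pairs of coding sequences, 43 were from 58.95% to 82.37% identical when aligned, the closest of these being *HXT4* with *HXT7*. *HXT13* and *HXT17* were 96.86% identical. *HXT6* and *HXT7*, both 1713 bases long, were 99.82% identical with 3 differences, T1632C, G1666A and T1677C, written with the *HXT6* base first and counted from the A of the start codon. These differences are shown because every read that separates the genes inside the coding sequence must cover them, with the differing bases in capitals and all other bases shared:
HXT6 coding bases 1622 to 1687 (chrIV:1159634-1159699, minus strand): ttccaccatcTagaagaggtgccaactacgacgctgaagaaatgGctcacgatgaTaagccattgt
HXT7 coding bases 1622 to 1687 (chrIV:1154242-1154307, minus strand): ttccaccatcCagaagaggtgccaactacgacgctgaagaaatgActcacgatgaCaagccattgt
In *HXT6* and in *HXT7*, 82 of 1639 windows of 75 bases, or 5.0%, occurred at no other place on either strand of the R64 genome, against 84.2% for *HXT13*, 86.6% for *HXT17* and at least 91.8% for the other 6 members. The 84 bases before the start codon were identical in both genes as well. Counts of *HXT6* and *HXT7* therefore rest on how the authors' estimation software divided shared reads, and their values are given both apart and summed. W303 may carry other differences, since the reference is from S288C.

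The stretch from 250 bases before to 50 bases after each start codon was searched on both strands for the Mig1 core CCCCGC or CCCCAC, the Rgt1 element CGGANNA, the stress element CCCCT of the activators Msn2 and Msn4, and the TATA box TATAAA or TATATA. No searched motif is contained in another, but neighbouring matches can share bases. Mig1 cores were found in *HXT1*, *HXT2* and *HXT4* (6.8% of 6026 promoters of this length hold one), an Rgt1 element in *HXT1* (26.4%), CCCCT in *HXT1*, *HXT5*, *HXT7* and *HXT13* (21.6%), and a TATA box in all 10 members (60.1%). Promoters are printed for members whose transcript level differed between the Htt strains and for *HXT6*, whose count is bound to that of *HXT7*, so that letters and levels can be read side by side. Capitals mark Mig1, Rgt1 and CCCCT matches on either strand, and a match is a run of letters, not an observed binding site:
HXT2 promoter (chrXIII:287829-288128, plus strand): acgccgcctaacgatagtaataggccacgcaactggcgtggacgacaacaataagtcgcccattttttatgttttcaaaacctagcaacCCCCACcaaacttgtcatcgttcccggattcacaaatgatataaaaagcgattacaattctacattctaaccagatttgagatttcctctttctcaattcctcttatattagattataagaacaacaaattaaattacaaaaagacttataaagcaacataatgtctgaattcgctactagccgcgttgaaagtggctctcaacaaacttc
HXT4 promoter (chrVIII:288762-289061, minus strand): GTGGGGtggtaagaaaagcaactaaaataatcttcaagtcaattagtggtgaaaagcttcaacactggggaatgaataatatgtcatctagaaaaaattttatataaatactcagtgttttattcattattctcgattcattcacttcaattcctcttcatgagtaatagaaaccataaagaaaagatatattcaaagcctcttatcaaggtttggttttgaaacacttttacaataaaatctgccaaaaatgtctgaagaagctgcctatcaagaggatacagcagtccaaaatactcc
HXT1 promoter (chrVIII:292576-292875, minus strand): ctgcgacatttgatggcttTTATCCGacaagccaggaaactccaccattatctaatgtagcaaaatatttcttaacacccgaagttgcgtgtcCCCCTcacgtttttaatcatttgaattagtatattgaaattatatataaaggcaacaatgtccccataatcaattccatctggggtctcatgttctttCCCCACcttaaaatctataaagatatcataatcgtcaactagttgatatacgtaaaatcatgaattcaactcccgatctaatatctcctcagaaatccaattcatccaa
HXT5 promoter (chrVIII:296398-296697, minus strand): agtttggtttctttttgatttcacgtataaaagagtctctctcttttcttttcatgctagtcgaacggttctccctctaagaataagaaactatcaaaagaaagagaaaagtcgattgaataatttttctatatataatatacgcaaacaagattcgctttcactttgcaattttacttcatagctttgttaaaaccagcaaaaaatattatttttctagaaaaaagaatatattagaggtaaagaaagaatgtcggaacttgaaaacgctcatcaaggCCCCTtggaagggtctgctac
HXT6 promoter (chrIV:1161271-1161570, minus strand): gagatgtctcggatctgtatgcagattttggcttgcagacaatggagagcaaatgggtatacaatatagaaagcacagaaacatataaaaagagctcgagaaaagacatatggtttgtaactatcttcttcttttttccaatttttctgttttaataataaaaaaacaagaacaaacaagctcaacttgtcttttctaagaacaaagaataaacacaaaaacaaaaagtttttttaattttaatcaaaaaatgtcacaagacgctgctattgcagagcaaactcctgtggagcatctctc
HXT7 promoter (chrIV:1155879-1156178, minus strand): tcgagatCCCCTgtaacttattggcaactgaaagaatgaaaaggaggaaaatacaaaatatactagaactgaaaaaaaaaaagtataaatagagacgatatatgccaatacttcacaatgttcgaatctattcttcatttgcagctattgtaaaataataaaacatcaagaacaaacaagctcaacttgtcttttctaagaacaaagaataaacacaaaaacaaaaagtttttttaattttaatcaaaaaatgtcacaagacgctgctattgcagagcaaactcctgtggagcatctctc
HXT10 promoter (chrVI:112095-112394, plus strand): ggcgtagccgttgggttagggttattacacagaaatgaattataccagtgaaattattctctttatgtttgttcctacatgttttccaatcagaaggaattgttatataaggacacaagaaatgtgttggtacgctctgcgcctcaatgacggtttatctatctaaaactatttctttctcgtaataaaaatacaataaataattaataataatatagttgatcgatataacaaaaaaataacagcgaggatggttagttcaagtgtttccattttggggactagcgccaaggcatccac
HXT13 promoter (chrV:23182-23481, minus strand): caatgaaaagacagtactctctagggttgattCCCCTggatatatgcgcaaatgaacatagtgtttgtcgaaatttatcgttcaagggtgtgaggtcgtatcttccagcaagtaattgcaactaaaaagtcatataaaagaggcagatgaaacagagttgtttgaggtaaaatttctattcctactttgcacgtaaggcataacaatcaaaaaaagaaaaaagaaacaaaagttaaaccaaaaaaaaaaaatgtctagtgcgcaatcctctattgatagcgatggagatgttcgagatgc
The Mig1 core lies 161 bases before the start codon of *HXT2*, 250 before that of *HXT4* and 59 before that of *HXT1*, and the single CCCCT of *HXT5* begins at coding base 30. CCCCT lies 243 bases before the start codon of *HXT7* and 218 before that of *HXT13*. *HXT6* and *HXT10* hold none of the capitalised motifs in this window.

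The libraries held 19942070 to 29440801 estimated counts, and levels are given in CPM, the counts scaled to a fixed library sum with TMM factors. As a check of the labels, *SLX5* had 494 to 1216 CPM with the plasmid and 50.1 to 99.7 CPM with the vector. Ribosomal RNA took 1.02% to 2.40% of the counts where the clone letter was a (4 libraries) and 0.254% to 0.958% in the other 7. Compared by a mean chi-square per gene, 1 library stood apart in each group of 3. This was library c in Htt103Q [V] (85.7 and 45.1 from a and b, which were 24.5 apart), library a in Htt25Q [*SLX5*] (86.0 and 82.9, against 12.8) and library a in Htt103Q [*SLX5*] (71.1 and 43.0, against 25.6), while the libraries of Htt25Q [V] were 68.7 apart. Of the 10 members, 7 had more CPM in library b than in library a of Htt25Q [V], by up to 1.64-fold for *HXT6*, whereas the median ratio over all tested genes was 1.0. Results that rest on these libraries are given with and without them. In the plots, group names are written without the prefix Htt.

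Per length, *HXT7* and *HXT6* made up most of the mRNA of the 10 members. In TPM, the authors' level per transcript length scaled to a fixed library sum, *HXT7* ranged from 328 to 564 (median 524) and *HXT6* from 120 to 452 (median 314) over the 11 libraries. Together they held 84.6% to 90.8% of the summed TPM of the 10 members. The next level was far lower, with medians of 28.3 TPM for *HXT2*, 20.3 TPM for *HXT3*, 17.1 TPM for *HXT5* and 16.6 TPM for *HXT4*. *HXT1* followed at a median of 7.25 TPM, then *HXT13* at 3.38 TPM, *HXT10* at 2.38 TPM and *HXT17* at 0.24 TPM.

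The order held in every library at 3 steps. *HXT6* exceeded *HXT2*, *HXT1* exceeded *HXT13*, and *HXT10* exceeded *HXT17* in 11 of 11 libraries. At other steps it depended on the Htt length. *HXT3* lay below *HXT5* in all 5 Htt25Q libraries and above it in all 6 Htt103Q libraries. *HXT5* exceeded *HXT4* in 5 of 5 Htt25Q libraries and in 1 of 6 Htt103Q libraries. *HXT7* exceeded *HXT6*, *HXT2* exceeded *HXT3* and *HXT4* exceeded *HXT1* in 6 of 6 Htt103Q libraries but in 3 of 5 Htt25Q libraries, so that in Htt25Q cells these neighbours did not differ beyond their spread. *HXT13* exceeded *HXT10* in 5 of 5 Htt25Q and 4 of 6 Htt103Q libraries. The median of the authors' FPKM gave the same order for all 10 members as the median TPM. For scale, *GAL2* ranged from 1852 to 2225 TPM in the 5 libraries of Htt25Q cells and from 996 to 1647 TPM in the 6 of Htt103Q cells, above every member.

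**Figure D1:**
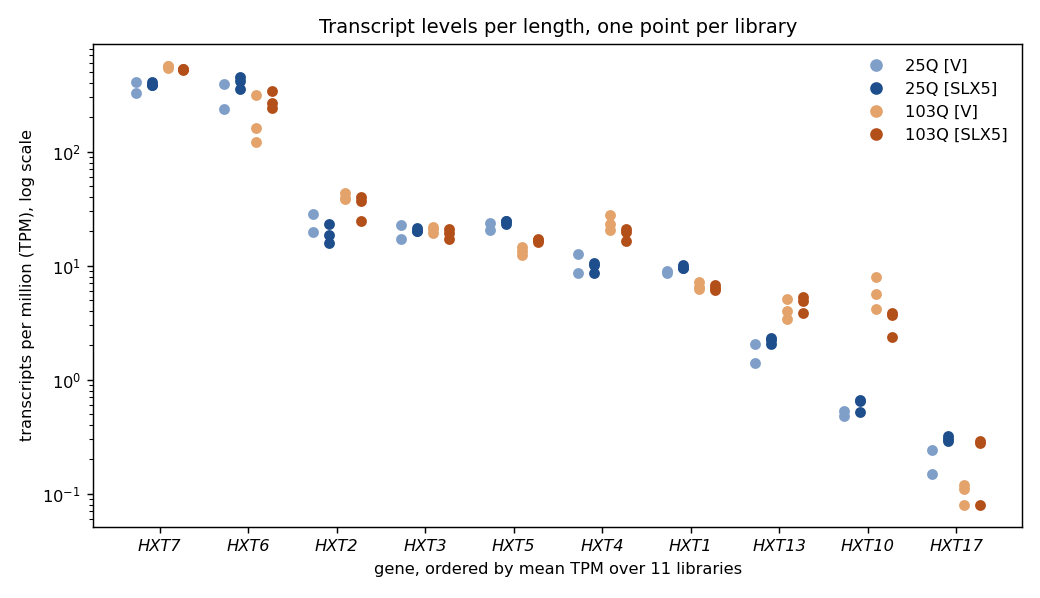
Transcript level per length (TPM, log axis) of the 10 hexose transporter genes, one point per library, coloured by group and ordered by mean TPM over the 11 libraries. *HXT7* and *HXT6* lie at 120 to 564 TPM, *HXT2*, *HXT3*, *HXT5* and *HXT4* overlap between 8.56 and 43.6 TPM, and *HXT17* stays at or below 0.32 TPM.

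The first comparison asked how the transporter genes differed between cells expressing the expanded and the short Htt fragment with the empty vector. Of the 10 members, 7 passed the test, which is edgeR's quasi-likelihood test with Benjamini-Hochberg adjustment over the 6321 genes and a threshold of 0.05. In Htt103Q [V], 5 were higher (*HXT2*, *HXT4*, *HXT7*, *HXT10*, *HXT13*) and 2 were lower (*HXT1*, *HXT5*), while *HXT3*, *HXT6* and *HXT17* did not pass. In this comparison 56.8% of all tested genes passed, 27.3% higher and 29.5% lower, so the 7 of 10 members are to be read against a broad difference between these strains. The median log2 fold change of the members was 0.21 and that of all tested genes was −0.02. CPM values of the groups did not overlap for 8 of 10 members and for 70.5% of all tested genes, and 8 members, *HXT6* with the 7 above, were under 0.05 before adjustment, as were 61.8% of genes. Without library c of Htt103Q [V] the test called 8 members, again *HXT6* with the 7, and 60.9% of genes. Without the libraries lettered a it called 6 members, all but *HXT2* of the 7, and 34.7% of genes.

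**Figure D2:**
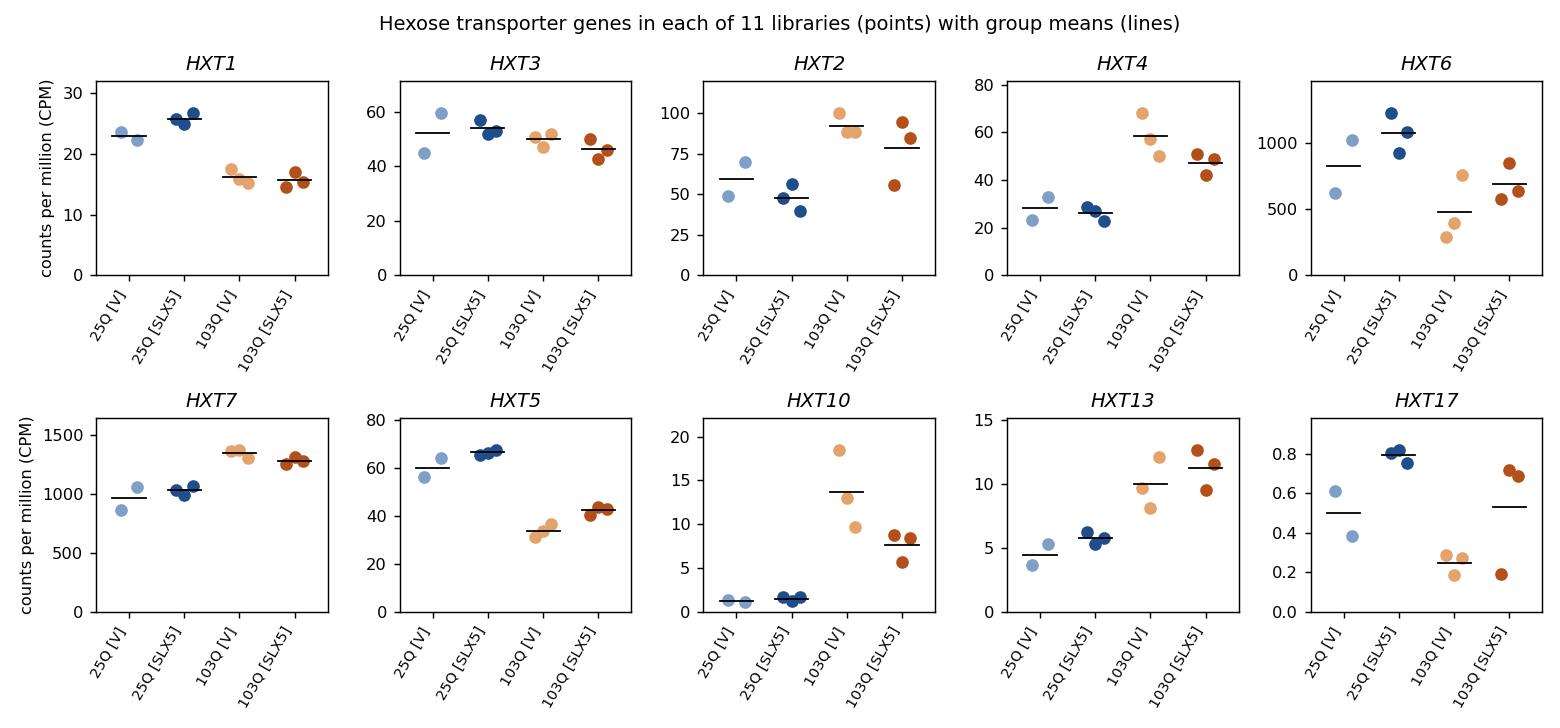
CPM of each hexose transporter gene in the 11 libraries (points), with group means (lines) on separate linear axes that start at 0. *HXT10*, *HXT4*, *HXT13* and *HXT7* lie higher in every Htt103Q library than in any Htt25Q library, and *HXT1* and *HXT5* lie lower.

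The low-affinity genes *HXT1* and *HXT3* parted. *HXT1* had 23.6 and 22.3 CPM in the Htt25Q [V] libraries and 17.6, 15.9 and 15.1 CPM in the Htt103Q [V] libraries. The groups did not overlap, and the log2 fold change was −0.50 (SE 0.10, edgeR adjusted p = 0.00147), a level 1.42-fold lower with Htt103Q. *HXT3* had 45.0 and 59.4 CPM in Htt25Q [V] and 50.8, 47.3 and 52.0 CPM in Htt103Q [V]. All 3 of its Htt103Q values fell between the Htt25Q values, and the difference of −0.06 (SE 0.11, edgeR adjusted p = 0.651) did not pass.

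The genes of higher affinity that respond to scarce glucose, *HXT2* and *HXT4*, were both higher with Htt103Q. *HXT4* had 23.0 and 33.1 CPM in Htt25Q [V] and 67.9, 57.0 and 49.99 CPM in Htt103Q [V]. These groups were well apart, and the log2 fold change was 1.05 (SE 0.17, edgeR adjusted p = 0.00041), a 2.07-fold rise. *HXT2* had 48.9 and 69.6 CPM in Htt25Q [V] and 99.7, 88.1 and 88.5 CPM in Htt103Q [V]. Its groups did not overlap either, and the log2 fold change was 0.63 (SE 0.22, edgeR adjusted p = 0.0264). The *HXT2* call rested on single libraries of letter a. It was lost without library a of Htt25Q [V] (0.40, edgeR adjusted p = 0.223), without library a of Htt103Q [V] (0.58, edgeR adjusted p = 0.0573) and without all 4 libraries of clone letter a (0.34, edgeR adjusted p = 0.19).

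*HXT7* rose and *HXT6* did not pass the test, although the genes are nearly identical. *HXT7*, the most abundant member, had 868 and 1060 CPM in Htt25Q [V] and 1365, 1373 and 1310 CPM in Htt103Q [V]. Its groups did not overlap, and the log2 fold change was 0.48 (SE 0.08, edgeR adjusted p = 0.000631). *HXT6* had 626 and 1025 CPM in Htt25Q [V] and 291, 394 and 761 CPM in Htt103Q [V]. Library c of Htt103Q [V] lay inside the Htt25Q range, and the difference of −0.78 (SE 0.33, edgeR adjusted p = 0.0645) did not pass. Without that library it did (−1.25, edgeR adjusted p = 0.000751), and so it did without library a of Htt25Q [V] (−1.09, edgeR adjusted p = 0.0416).

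Summed, the pair showed no such difference. *HXT6* and *HXT7* together had 1495 and 2085 CPM in Htt25Q [V] and 1656, 1767 and 2070 CPM in Htt103Q [V], and the log2 fold change of the sum was 0.03 (edgeR adjusted p = 0.854). What differed was the division of the pair's counts. *HXT6* took 41.9% and 49.2% in Htt25Q [V], 54.2%, 48.2% and 50.5% in Htt25Q [*SLX5*], 17.6%, 22.3% and 36.7% in Htt103Q [V] and 31.5%, 39.1% and 33.4% in Htt103Q [*SLX5*]. Every Htt103Q library lay below every Htt25Q library, though the highest of them, at 39.1%, came close to the lowest Htt25Q library at 41.9%.

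Averaged over both plasmids, the *HXT6* share in Htt103Q cells differed from that in Htt25Q cells by −18.2 percentage points, and the summed CPM of the pair by −48.3. The share was singled out after its values were seen, so these differences are a description with no test. Leaving out any single library moved the difference in share between −20.95 and −16.2 points, and without the 4 libraries of clone letter a it was −16.4 points. Since 5.0% of windows separate the genes, the share depends on a small part of the pair's reads and on how the shared reads were assigned. The part of that assignment in the difference was not tested.

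**Figure D3:**
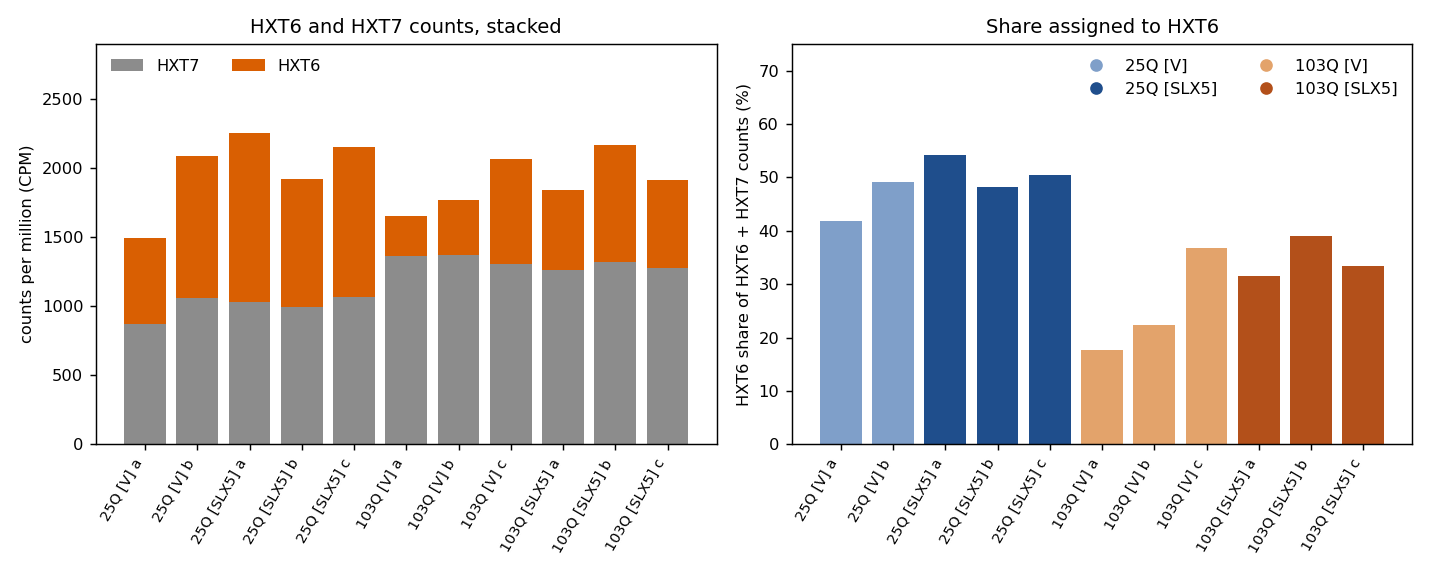
Left, CPM assigned to *HXT7* (grey) and *HXT6* (orange), stacked for each library; right, the percentage of the counts of the pair assigned to *HXT6*. The stacked sums run from 1495 to 2258 CPM without separation by Htt length, whereas the *HXT6* share is 41.9% to 54.2% in the Htt25Q libraries and 17.6% to 39.1% in the Htt103Q libraries.

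*HXT5*, the transporter gene of slow growth and starvation, fell. It had 56.5 and 64.1 CPM in Htt25Q [V] and 31.3, 33.9 and 36.9 CPM in Htt103Q [V]. The groups were far apart relative to their spread, and the log2 fold change was −0.83 (SE 0.09, edgeR adjusted p = 3.72e-05), 1.77-fold lower with Htt103Q.

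*HXT10* had the largest change of the 10 members, from a low base. It had 1.33 and 1.19 CPM in Htt25Q [V] and 18.5, 13.03 and 9.67 CPM in Htt103Q [V], which were 26 and 28 counts against 448, 278 and 214 counts. Every Htt103Q value exceeded every Htt25Q value by a wide margin, and the log2 fold change was 3.45 (SE 0.33, edgeR adjusted p = 2.70e-05), a 10.9-fold rise. Its coding sequence holds no 75-base window that occurs in another gene, so these reads were not shared. Even after the rise, its level of 4.20 to 8.0 TPM in Htt103Q [V] was below every value of *HXT6* and *HXT7* (120 TPM or more).

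Of the genes linked to polyol transport, *HXT13* rose and *HXT17* was barely detected. *HXT13* had 3.68 and 5.31 CPM in Htt25Q [V] and 9.68, 8.16 and 12.2 CPM in Htt103Q [V]. The groups did not overlap, and the log2 fold change was 1.15 (SE 0.22, edgeR adjusted p = 0.00111). *HXT17* had 0.61 and 0.38 CPM in Htt25Q [V] and 0.29, 0.19 and 0.27 CPM in Htt103Q [V], from 4.15 to 12.2 estimated counts. Its groups did not overlap, but the difference of −0.96 (SE 0.57, edgeR adjusted p = 0.171) did not pass at this depth. Summing *HXT13* with *HXT17* kept the rise at 1.03 (edgeR adjusted p = 0.00119). Summing *HXT13* and *HXT17* with *HXT15* and *HXT16* gave the opposite sign, −0.33 (edgeR adjusted p = 0.0274). In that sum *HXT15* dominates, which itself went from 73.2 ± 3.37 to 51.7 ± 5.90 CPM (SD; log2 fold change −0.50, edgeR adjusted p = 0.0051) and whose coding sequence is 88.85% identical to that of *HXT13*.

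The second comparison asked the same of cells with the *SLX5* plasmid. Its group means came from 6 libraries other than those compared first. The integrant strains were the same, and the spread was estimated over all 11 libraries, so the comparisons are not independent. Again 7 of 10 members passed, against 53.5% of all tested genes, with 26.9% higher and 26.6% lower. The members called in both comparisons were the same 7, all 7 in the same direction. How many of all tested genes were called in both was not counted, so this overlap cannot be set against a background. CPM values did not overlap for 9 of 10 members and for 64.4% of all tested genes, and the median log2 fold change was 0.05 over the members and −0.01 over all genes.

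Among the members that rose, *HXT10* had 1.68, 1.29 and 1.67 CPM in Htt25Q [*SLX5*] and 8.75, 5.66 and 8.46 CPM in Htt103Q [*SLX5*]. The groups were again far apart, at a log2 fold change of 2.30 (SE 0.27, edgeR adjusted p = 7.32e-05), a 4.91-fold rise. *HXT13* had 6.27, 5.34 and 5.79 CPM against 12.7, 9.56 and 11.6 CPM and rose by 0.96 (SE 0.19, edgeR adjusted p = 0.00135). *HXT4* had 28.6, 27.0 and 22.8 CPM against 51.1, 41.9 and 48.7 CPM and rose by 0.85 (SE 0.15, edgeR adjusted p = 0.000756). For both genes every value with Htt103Q exceeded every value with Htt25Q.

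*HXT2* had 47.4, 56.4 and 39.5 CPM in Htt25Q [*SLX5*] and 55.5, 94.6 and 84.4 CPM in Htt103Q [*SLX5*]. It was the only member whose groups overlapped in this comparison, at library a of Htt103Q [*SLX5*], and it passed with 0.71 (SE 0.19, edgeR adjusted p = 0.00911), in contrast to the vector comparison also without the libraries of clone letter a (0.90, edgeR adjusted p = 0.00476). *HXT7* had 1033, 995 and 1067 CPM against 1259, 1318 and 1277 CPM and rose by 0.32 (SE 0.07, edgeR adjusted p = 0.00428). That rise was 1.25-fold, and it was small in size but clear of the spread between libraries.

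Among the members that fell, *HXT1* had 25.8, 25.0 and 26.7 CPM in Htt25Q [*SLX5*] and 14.6, 17.1 and 15.4 CPM in Htt103Q [*SLX5*]. Its log2 fold change was −0.72 (SE 0.09, edgeR adjusted p = 0.000111). *HXT5* had 65.7, 66.6 and 67.6 CPM against 40.4, 44.0 and 43.0 CPM, with a log2 fold change of −0.65 (SE 0.08, edgeR adjusted p = 7.36e-05). Both genes kept their groups fully apart.

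The other members did not pass. *HXT6* had 1225, 927 and 1087 CPM against 580, 847 and 640 CPM, and its difference of −0.65 (SE 0.30) had an edgeR adjusted p of 0.0896. The spread of *HXT6* was estimated over all groups, and with the compared groups alone it passed (−0.64, edgeR adjusted p = 0.00427), as it did without library a (−0.64, edgeR adjusted p = 0.0421) or library c of Htt103Q [V] (−0.64, edgeR adjusted p = 0.0129). The sum of *HXT6* and *HXT7* was 2258, 1922 and 2154 CPM against 1839, 2165 and 1917 CPM and did not pass (−0.10, edgeR adjusted p = 0.536), and on that sum the rise of *HXT7* is gone. *HXT3* had 57.2, 51.8 and 53.1 CPM against 50.2, 42.6 and 46.1 CPM, with a difference of −0.22 (SE 0.10, edgeR adjusted p = 0.0828). That small difference passed without library a of Htt25Q [V] (edgeR adjusted p = 0.0374), without library b of Htt25Q [V] (edgeR adjusted p = 0.0377) and with the compared groups alone (edgeR adjusted p = 0.0419). *HXT17* had 0.80, 0.82 and 0.75 CPM against 0.19, 0.72 and 0.69 CPM, a difference of −0.59 (SE 0.44, edgeR adjusted p = 0.279).

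**Figure D4:**
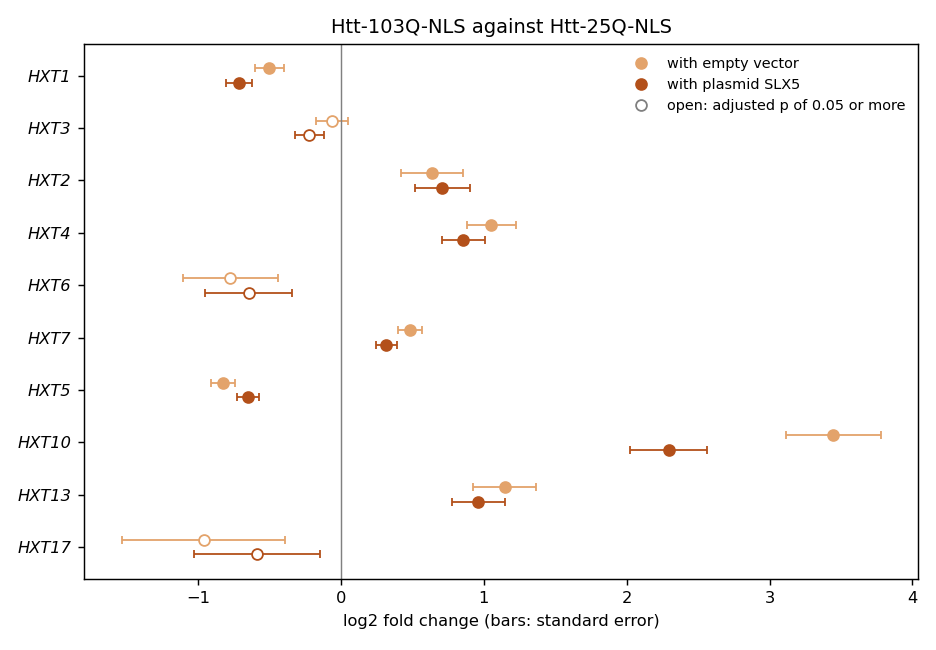
Log2 fold change of each hexose transporter gene in NLS-Htt103Q against NLS-Htt25Q cells, with the empty vector (light) and with plasmid-borne *SLX5* (dark); bars are standard errors, and open points did not pass at an adjusted p of 0.05. *HXT10* stands at 3.45 and 2.30, *HXT13* and *HXT4* near 1, and *HXT1* and *HXT5* below 0 with both plasmids.

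The third comparison asked what plasmid-borne *SLX5* did in NLS-Htt25Q cells. No member passed edgeR's test or DESeq2's, none had an unadjusted p under 0.05, and 0.0475% of the tested genes passed, 3 in all, with 0.0158% higher and 0.0316% lower. These were *SLX5* itself, *LYS20* and *SNZ1*, named after their values were seen. Without adjustment 8.94% of genes were under 0.05 in edgeR's test, and with DESeq2 the calls numbered 33 (0.498%), no member among them. CPM values did not overlap for 4 of 10 members, against 39.2% of all tested genes. *HXT5* had 56.5 and 64.1 CPM with the vector and 65.7, 66.6 and 67.6 CPM with *SLX5*, a difference of 0.14 (SE 0.08, edgeR adjusted p = 0.654). The estimates ran from −0.31 for *HXT2* (SE 0.21) to 0.68 for *HXT17* (SE 0.51). For *HXT7* the interval of 2 SE ran from −0.07 to 0.27, and for *HXT6* from −0.29 to 1.07, so a sizeable change of *HXT6* could have gone unseen with 2 vector libraries.

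The fourth comparison asked the same in NLS-Htt103Q cells. No member passed edgeR's test, and 0.0158% of the tested genes did, a single gene, *SLX5* itself. *HXT5* and *HXT10* had unadjusted p-values under 0.05, as did 23.2% of all tested genes. They were also the only members whose groups did not overlap, 2 of 10 against 16.8% of all tested genes.

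*HXT5* had 31.3, 33.9 and 36.9 CPM with the vector and 40.4, 44.0 and 43.0 CPM with *SLX5*. The level was higher in each library with *SLX5*, by 0.32 on the log2 scale (SE 0.08, unadjusted p = 0.00155 in edgeR's test, adjusted p = 0.123). *HXT10* had 18.5, 13.03 and 9.67 CPM with the vector and 8.75, 5.66 and 8.46 CPM with *SLX5*. Its level was lower in each library with *SLX5*, with a log2 difference of −0.85 (SE 0.24, unadjusted p = 0.00395 in edgeR's test, adjusted p = 0.145). With *SLX5* both lay between the levels of Htt103Q [V] and of the Htt25Q cells, where *HXT10* had 1.19 to 1.68 CPM and *HXT5* 56.5 to 67.6 CPM over 5 libraries.

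Whether these differences pass depends on the tool and on library c of Htt103Q [V]. DESeq2 called both, with log2 differences of 0.31 for *HXT5* (adjusted p = 0.0193) and −0.85 for *HXT10* (adjusted p = 0.029), among 5.13% of the genes it tested. A 2-step likelihood ratio procedure in edgeR called both as well (0.32, adjusted p = 0.0203, and −0.85, adjusted p = 0.0305), among 7.26% of the genes it tested. Without library c of Htt103Q [V], edgeR's test called 26.1% of all tested genes, and 3 members among them. These were *HXT5* (0.37, adjusted p = 0.00732), *HXT6* (0.998, adjusted p = 0.00933) and *HXT10* (−1.05, adjusted p = 0.00826). *HXT6* had 291, 394 and 761 CPM with the vector and 580, 847 and 640 CPM with *SLX5*, so that only library c lay among the *SLX5* libraries, and with it the difference was 0.52 (SE 0.30, edgeR adjusted p = 0.311).

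The other 7 members had edgeR adjusted p-values from 0.236 to 0.781. *HXT4* had 67.9, 57.0 and 49.99 CPM with the vector and 51.1, 41.9 and 48.7 CPM with *SLX5*, and its difference of −0.30 (SE 0.15, edgeR adjusted p = 0.236) left the groups overlapping. *HXT7* differed by −0.07 with an interval of 2 SE from −0.22 to 0.08.

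The *SLX5* effect was then compared between the Htt lengths by an interaction term. No member passed, and 0 of 6321 genes did, while 348 genes were under 0.05 before adjustment (5.51%). By DESeq2 the count was 0, and the likelihood ratio procedure gave 1 gene, which was no member. Among the 348 genes under 0.05 before adjustment, *HXT10* was the only member, with −1.15 on the log2 scale (SE 0.42, unadjusted p = 0.0187 in edgeR's test, adjusted p = 0.792). The same term is the difference between the *HXT10* rises of 3.45 and 2.30 with vector and *SLX5*, which was thus not shown to differ. For *HXT5* the term was 0.18 (SE 0.11, edgeR adjusted p = 0.794).

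**Figure D5:**
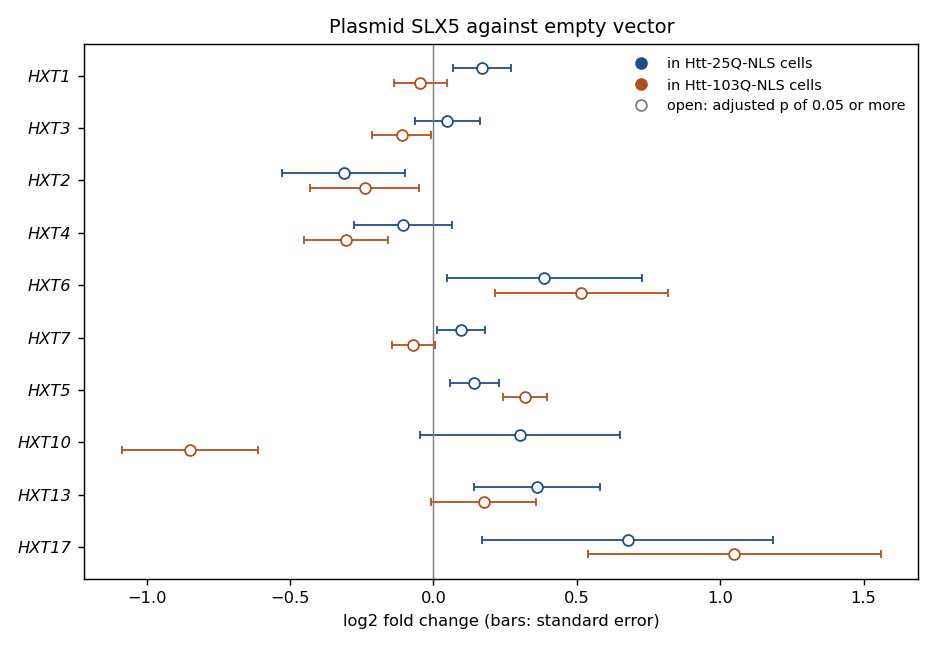
Log2 fold change of each hexose transporter gene with plasmid-borne *SLX5* against the empty vector in NLS-Htt25Q (blue) and NLS-Htt103Q (brown) cells; bars are standard errors. All points are open, none passing at an adjusted p of 0.05 in edgeR's test. *HXT10* at −0.85 and *HXT5* at 0.32 in Htt103Q cells lie farthest from 0 relative to their standard errors.

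The members also differed in how even their counts were between replicate libraries. In Htt103Q [V], the coefficient of variation of *HXT6* was 51.2%, above 98.2% of the tested genes, whereas that of *HXT7* was 2.57% and that of the median gene 9.16%. Summed, the pair varied by 11.7%, and the values of each gene alone depend on how shared reads were divided. *HXT10* varied by 32.3% in Htt103Q [V] and 22.4% in Htt103Q [*SLX5*], and *HXT2* by 26.0% in Htt103Q [*SLX5*]. Between the libraries of Htt25Q [V], *HXT6* varied by 34.1%, *HXT13* by 25.5%, *HXT4* by 25.35% and *HXT2* by 24.8%. The median gene varied by 4.999% there, and *HXT1* by 4.01%. The highest value of any member was 55.3% for *HXT17* in Htt103Q [*SLX5*], from few counts. *HXT5* varied by 8.95% in Htt25Q [V], 1.40% in Htt25Q [*SLX5*], 8.24% in Htt103Q [V] and 4.36% in Htt103Q [*SLX5*].

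The genes around the transporters were described from lists of the same pathway, whose counts stand beside 27.3% of all tested genes higher and 29.5% lower in this comparison. Of 8 other members of the family, 4 were higher and 2 lower in Htt103Q [V] than in Htt25Q [V]. *GAL2*, the galactose permease that serves these cells, went from 5021 ± 118 to 2920 ± 613 CPM (SD; log2 fold change −0.78, edgeR adjusted p = 0.00104). *HXT11* rose from 3.34 ± 1.40 to 9.46 ± 1.27 CPM (1.49, edgeR adjusted p = 0.00259) and *HXT14* from 0.21 ± 0.30 to 3.15 ± 0.70 CPM (3.76, edgeR adjusted p = 0.00093). Both are weakly expressed, and 44.3% of the 75-base windows of *HXT11* are its own.

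Of 8 glucose sensing genes, 4 were higher and 2 lower. *RGT1*, the repressor of *HXT* promoters, rose from 90.8 ± 6.32 to 126 ± 5.01 CPM (0.48, edgeR adjusted p = 0.000303). *RGT2*, the sensor of abundant glucose, fell from 87.3 ± 8.48 to 65.4 ± 2.31 CPM (−0.42, edgeR adjusted p = 0.000873). The casein kinases that relay the signal parted, with *YCK2* up by 0.48 (edgeR adjusted p = 0.000248) and *YCK1* at −0.45 (edgeR adjusted p = 0.000593).

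Of 12 glucose repression genes, 1 was higher and 5 were lower. The one that rose was *MIG1*, the repressor itself, from 190 ± 4.05 to 284 ± 13.2 CPM (0.58, edgeR adjusted p = 8.19e-05). *SIP2* and *SIP1*, which encode β subunits of the Snf1 kinase complex, had log2 fold changes of −0.99 (edgeR adjusted p = 0.000161) and −0.43 (edgeR adjusted p = 0.000658). *REG1*, a phosphatase subunit that restrains Snf1, had −0.59 (edgeR adjusted p = 0.000896).

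Of 4 hexose kinase genes, 0 were higher and 2 lower. *GLK1* went from 2607 ± 121 to 1112 ± 369 CPM (−1.23, edgeR adjusted p = 0.000629) and *HXK1* from 6361 ± 621 to 3589 ± 1291 CPM (−0.83, edgeR adjusted p = 0.00779), while *HXK2*, the main hexokinase gene of cells in abundant glucose, had 1847 ± 37.4 and 1961 ± 49.2 CPM (0.09, edgeR adjusted p = 0.34). Of 7 other sugar and polyol permeases, 4 were higher and 0 lower, namely the maltose permease genes *MAL11* at 1.07 (edgeR adjusted p = 1.35e-05) and *MAL31* at 0.57 (edgeR adjusted p = 0.000445), the inositol permease gene *ITR1* at 0.83 (edgeR adjusted p = 0.0102) and *MPH3* at 0.32 (edgeR adjusted p = 0.0207). Of 4 genes for turnover of transporters at the membrane, 1 was higher and 1 lower, the ubiquitin ligase *RSP5* at 0.28 (edgeR adjusted p = 0.00687) and *ROG3* at −0.31 (edgeR adjusted p = 0.0126). The medians of the 6 lists, in the order given, were 0.62, 0.07, −0.32, −0.47, 0.32 and 0.16, beside −0.02 for all tested genes.

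With the *SLX5* plasmid, the counts of the 6 lists in Htt103Q against Htt25Q cells were 2 higher and 2 lower of 8 family members, 3 and 3 of 8 sensing genes, 1 and 5 of 12 repression genes, 0 and 2 of 4 kinases, 2 and 0 of 7 other permeases, and 0 and 0 of 4 turnover genes, beside 26.9% of all tested genes higher and 26.6% lower. *GAL2* (−0.64, edgeR adjusted p = 0.0021), *MIG1* (0.39, edgeR adjusted p = 0.000409), *GLK1* (−1.02, edgeR adjusted p = 0.00129) and *MAL11* (0.70, edgeR adjusted p = 5.39e-05) passed there as well. *RGT1* (0.11, edgeR adjusted p = 0.161), *HXT11* (0.48, edgeR adjusted p = 0.165) and *ITR1* (0.35, edgeR adjusted p = 0.164) passed with the vector but not here. The same held for *MPH3* (−0.03, edgeR adjusted p = 0.809), *RSP5* (0.03, edgeR adjusted p = 0.706) and *ROG3* (−0.15, edgeR adjusted p = 0.138). All other genes named from the lists as passing with the vector passed here too. No gene of these lists passed edgeR's test in either *SLX5* comparison. Over all 6321 tested genes, 3 passed in Htt25Q cells and 1 in Htt103Q cells, so this says little about the lists. Before adjustment some list genes were under 0.05 in Htt103Q cells, among them *GLK1* (0.62, unadjusted p = 0.0085 in edgeR's test), as were 23.2% of all tested genes.

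Genes whose log2 CPM ran most closely with each member over the 11 libraries were listed by Pearson's r as a description, without a test, since libraries of a group share their condition. For *HXT5* these were *GPG1* (0.997) and *CMG1* (0.993), for *HXT1* *FPR1* (0.990) and *DYN1* (0.982), and for *HXT4* *MET14* (0.988) and *SSE1* (0.980). For *HXT6* they were *DNF3* (0.986) and *EPS1* (0.981), for *HXT7* YJR154W (0.962) and *ACA1* (0.958), for *HXT2* *SPO73* (0.937) and *ENA5* (0.911), and for *HXT3* *ENB1* (0.880) and *TRX1* (0.874). No member was among the 2 nearest genes of another. *HXT10*, *HXT13* and *HXT17* were left out because their mean was under 10 CPM.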

How the data were processed

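RNA was sequenced from 11 liquid cultures in 4 groups, named by the labels. The authors converted base calls (bcl2fastq 2.17), trimmed (Trimmomatic 0.36), mapped to EF4 transcripts of S288C (STAR 2.5.1) and deposited the expected counts per gene that RSEM 1.2.22 estimated, unnormalised, with 16.5% of values not whole. TPM and FPKM, which the authors' RSEM run deposited for each sample, are per effective length and were used to compare levels between genes. The library kit is described differently in the labels and in the study's methods. RSEM divides reads shared by near-identical genes.

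Expected counts were rounded to whole numbers, scaled by TMM, filtered with filterByExpr and fitted with 1 mean per group in edgeR 4.0.16 (limma 3.58.1, R 4.3.3), with the quasi-likelihood test and Benjamini-Hochberg adjustment over 6321 genes at 0.05. Standard errors were obtained as the size of the log2 fold change over the square root of F. A 2-step likelihood ratio procedure in edgeR, set up here after the study's description of a first test over all groups, which 4158 genes passed, and DESeq2 1.42.0 were alternatives, as were other scalings and filters, a replicate block, summed near-identical genes, omission of each library and of clone letter a. CPM are TMM-scaled. On simulated data for Htt103Q [V] against Htt25Q [V], with 6321 genes, the edgeR test recovered 65 of 100 genes changed by 0.5 and 100 of 100 changed by 1 on the log2 scale, with 10 false calls. Far fewer genes were changed there than were called in the real comparison. They were balanced in direction and drawn above a floor on expression that *HXT17* does not reach, so these rates need not hold for the data.

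The 10 members are described in every library. From each other list, up to 4 genes with the smallest adjusted p in Htt103Q [V] against Htt25Q [V] are named, plus *GAL2*, and for each member with a mean of at least 10 CPM the 2 genes of highest Pearson's r. The members and lists were chosen with earlier results of these data known. Sequences and coordinates are from RefSeq R64, whose coding lengths equal the authors' for 6003 of 6013 genes. Identity was computed between coding sequences with Biopython 1.88, and protein identity was not analysed here. Library c of Htt25Q [V] was not used here.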

Additional observations from a re-analysis of the deposited data

How the results depend on the processing

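Of 1142 values of single members under the alternatives, 1089 kept their direction and their side of the threshold, 25 that were not called changed sign without gaining a call, 5 lost the call, 20 gained it and 3 called values changed sign, whether or not the new value passed. Of the 25 sign changes, 21 came from leaving out libraries and 4 from summing near-identical genes. In Htt103Q [V] against Htt25Q [V] they were *HXT3* (0.15 without library b of Htt25Q [V]) and *HXT6* (0.03 summed with *HXT7*). The number of members called ran from 5 to 8 with the vector and from 5 to 9 with *SLX5* for Htt103Q against Htt25Q, the lowest where a mean of at least 10 CPM was required, which *HXT10*, *HXT13* and *HXT17* do not reach. Under that requirement 3229 of 5391 tested genes were called with the vector and 3068 with *SLX5*. The number of members called was 0 throughout for *SLX5* in Htt25Q cells and for the interaction. For *SLX5* in Htt103Q cells it was 2 by DESeq2, 2 by the likelihood ratio procedure and 0 to 3 when single libraries were left out, with 3 without library c of Htt103Q [V]. Leaving out single libraries gave 6 to 8 members with the vector and 7 to 8 with *SLX5* for Htt103Q against Htt25Q. Over all tested genes the same omissions called from 2519 of 6351 to 3850 of 6318 with the vector. With *SLX5* they called from 2766 of 6307 to 3643 of 6318.

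The 3 called values that changed sign came from summing near-identical genes. *HXT13* summed with *HXT15*, *HXT16* and *HXT17* was −0.33 with the vector (edgeR adjusted p = 0.0274) and −0.49 with *SLX5* (edgeR adjusted p = 0.00218). Most counts of that sum were assigned to *HXT15*. *HXT7* summed with *HXT6* was −0.10 with *SLX5* and did not pass (edgeR adjusted p = 0.536), so there the call was lost and no opposite call was made. Summing *HXT13* with *HXT17* alone, an alternative chosen after seeing the data, gave 1.03 and 0.84. *HXT6* in Htt103Q [V] against Htt25Q [V] passed by the likelihood ratio procedure (−0.78, adjusted p = 0.0255).

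Clone letters were shared between groups, and of 15 same-letter pairs of libraries 7 had correlated deviations above 0.1 (range −0.145 to 0.21). Pairs of different letters were not set beside them, so these values cannot decide whether the letters pair the samples. The main fit did not pair by letter, and a replicate block was run as an alternative. With the replicate block, 8 members were called with the vector, 7 with *SLX5* for Htt103Q against Htt25Q, and 0 for *SLX5* in Htt25Q cells, in Htt103Q cells and for the interaction. Of 6321 tested genes the block called 3500, 3327, 4, 3 and 0 in these comparisons, in the same order. The call that changed under the block was *HXT6* with the vector (−0.94, edgeR adjusted p = 0.029). Depth limits *HXT17*, at 4.15 to 21.97 estimated counts, and the uniqueness of reads limits *HXT6* and *HXT7*.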
